A study of Mus musculus with 4 samples.

Results

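The clustered histone genes are those whose symbol begins with Hist1h, Hist2h, Hist3h or Hist4h, and 68 of the 23361 genes of the deposited table were chosen by that pattern. By type they belong to the linker histone H1 (6 genes) and the core histones H2a (18), H2b (19), H3 (12) and H4 (13). Among those counted as H2b is *Hist3h2bb-ps*, a processed pseudogene in GENCODE. Of them, 54 lie in cluster 1 on chromosome 13, 10 in cluster 2 on chromosome 3, 3 in cluster 3 on chromosome 11 and 1, *Hist4h4*, on chromosome 6 (GRCm38, GENCODE M21). Early T lineage progenitors (ETP) are the most immature T lineage cells of the thymus, and their RNA was measured in 4 libraries, 2 from young and 2 from old female C57BL6 mice (C57BL/6J in the study's methods). The labels give an age of 4 to 6 weeks for young and 72 weeks for old mice. By the study's methods the young and the old mice came from different colonies, so age and colony cannot be told apart. All cells were lysed directly after sorting for the same surface markers (Lin- CD44+ CD25- CD117+), and no allele or agent was varied. The table numbers the libraries of each age 0 and 1, called replicates 1 and 2 here, and names the old condition 20m rather than 72 weeks. The labels do not settle which library of an age is which sample. Whether 2 libraries of 1 age stem from different animals is not stated, so a p-value here covers the spread among these 4 libraries alone, part of which may be technical.

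Replication-dependent histone genes supply the histones that package new DNA, and their mRNA accumulates in S phase and is degraded when replication ends. Most have no intron, and their mRNA is the only animal mRNA that ends without a poly(A) tail. It ends after a conserved stem-loop, which is bound by the stem-loop binding protein (encoded by *Slbp*) and cut just downstream by a complex that includes the U7 snRNP. Transcription takes place in a nuclear body organised around NPAT, which is activated by cyclin E and CDK2. ETP divide extensively in the thymus, and a cell that replicates its genome draws on these genes. Some members can also be read through the stem-loop into a distal polyadenylation site, which gives a longer, polyadenylated mRNA that outlasts S phase.

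The stem-loop is what sets these transcripts apart from others, so its sequence is shown first, for members of every type that the results turn on. The 16 letters of the stem-loop were searched on the transcript strand as GGNNCTNTTNAGNNCC, with the whole GENCODE M21 transcript as window. They were present in 43 of the 68 members and in 149 of 55273 other genes (0.27%). By type, they were found in 4 of 6 H1, 11 of 18 H2a, 9 of 19 H2b, 8 of 12 H3 and 11 of 13 H4 genes. Many models without a match have the length of a coding sequence alone. Capitals mark the stem-loop in each window of 30 bases, written 5′ to 3′ on the transcript's strand in GRCm38 coordinates.
Hist1h1c, chr13:23739506-23739535 (plus strand): ccaaaaGGCTCTTTTCAGAGCCaccactcc
Hist1h1e, chr13:23621774-23621803 (minus strand): cccaaaGGCTCTTTTCAGAGCCacccacaa
Hist1h2ac, chr13:23683469-23683498 (minus strand): cccaaaGGCTCTTTTCAGAGCCcccacttt
Hist2h2ac, chr3:96220410-96220439 (minus strand): caaaaaGGCTCTTTTTAGAGCCaccaaatc
Hist1h2bm, chr13:21722500-21722529 (plus strand): cacaaaGGCTCTTTTCAGAGCCactaagca
Hist1h3e, chr13:23561895-23561924 (minus strand): caaaacGGCTCTTTTAAGAGCCacctccat
Hist1h4d, chr13:23581944-23581973 (plus strand): accaaaGGCCCTTTTCAGGGCCactacctt
Hist2h4, chr3:96262931-96262960 (minus strand): cctaacGGCCCTTTTTAGGGCCaaccacag
Hist1h4j, chr13:21735431-21735460 (plus strand): cctaaaGGTCCTTTTCAGGACCaccacatc
Within the stem, H4 genes differed from the other types. Of the 11 H4 genes with a match, 7 held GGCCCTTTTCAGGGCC, 2 held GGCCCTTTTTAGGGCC and 2 (*Hist1h4b* and *Hist1h4j*) held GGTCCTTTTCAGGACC. The form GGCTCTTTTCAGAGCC was found in 25 members, none of them H4, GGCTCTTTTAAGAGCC in 6 and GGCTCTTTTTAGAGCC only in *Hist2h2ac*.

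The promoters were examined since several members are arranged as H2a and H2b pairs that are transcribed away from each other. There were 13 such pairs, with 172 to 305 bases between the starts of their GENCODE models. The pair 172 bases apart is *Hist3h2a* with the pseudogene *Hist3h2bb-ps*. Windows of 300 bases around the RefSeq start (250 before and 50 after, GRCm38.p6) were matched for 61 of the 68 members. CCAAT and the octamer were searched on both strands and TATAAA on the strand of transcription. CCAAT was found in 85.2% of the member windows and 37.4% of all 32851 RefSeq windows, TATAAA in 47.5% and 8.32%, and the octamer ATTTGCAT in 21.3% and 1.74%. All 13 windows with the octamer belonged to H2a (7 of 18) or H2b (6 of 16) genes. CCAAT was found in every window of H1, H2a, H2b and H3 but in 3 of 12 windows of H4. The 235 bases nearest upstream of the RefSeq start are shown for the H2a genes of 2 such pairs, *Hist1h2ac* with *Hist1h2bc* and *Hist2h2ac* with *Hist2h2be*, and for the most abundant H4 gene. Capitals mark the letters CCAAT (or ATTGG, the reverse complement), the octamer in either orientation and the TATAAA motif, and a match is a description of these letters only.
Hist1h2ac, chr13:23683960-23684194 (minus strand): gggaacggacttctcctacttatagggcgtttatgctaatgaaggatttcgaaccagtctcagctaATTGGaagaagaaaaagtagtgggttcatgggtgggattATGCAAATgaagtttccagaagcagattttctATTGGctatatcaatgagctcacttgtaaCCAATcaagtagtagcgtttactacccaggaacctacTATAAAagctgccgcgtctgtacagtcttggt
Hist2h2ac, chr3:96220881-96221115 (minus strand): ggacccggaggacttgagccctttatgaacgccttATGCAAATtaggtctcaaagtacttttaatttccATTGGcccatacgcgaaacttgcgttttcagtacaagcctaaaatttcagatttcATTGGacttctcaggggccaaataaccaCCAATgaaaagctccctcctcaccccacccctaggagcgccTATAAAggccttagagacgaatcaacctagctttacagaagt
Hist1h4d, chr13:23581333-23581567 (plus strand): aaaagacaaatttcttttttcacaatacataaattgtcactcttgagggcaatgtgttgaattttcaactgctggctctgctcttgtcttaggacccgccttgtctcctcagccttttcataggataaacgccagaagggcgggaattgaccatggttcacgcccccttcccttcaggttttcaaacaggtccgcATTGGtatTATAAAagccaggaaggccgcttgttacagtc

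Levels are given as CPM, counts of estimated fragments scaled to a common library size by TMM. CPM do not correct for length, so levels of different genes are compared by TPM, the authors' FPKM brought to the same sum in each library. Shares of fragments are not corrected for length. Depth was 16658864 and 6414915 fragments for young and 11816478 and 4839341 for old ETP, and 3 fragments, the most that a count of 0 allows, equalled 0.176 to 0.654 CPM. Histone genes took a small share of the RNA. They held 9958 and 2999 fragments in young replicates 1 and 2, and the old replicates held 7268 and 3172. These were 0.0598% (95% Wilson interval 0.0586 to 0.0610) and 0.0468% (0.0451 to 0.0485) of all fragments in young, and 0.0615% (0.0601 to 0.0629) and 0.0655% (0.0633 to 0.0679) in old ETP. The intervals cover counting error only, and PCR copies are not independent molecules. By these intervals young replicate 2 lay below and old replicate 2 above the other libraries, while the replicates numbered 1 overlapped. The mean share in old ETP was 1.19 times that in young ETP, and the young replicates differed from each other by more than the replicates numbered 1 of the 2 ages did. In this bulk RNA, a different number of cells in S phase and a different amount of histone RNA in each cell cannot be told apart.

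In all, 43 members were tested because 2 or more libraries gave them an FPKM of 1 or higher, and 25 fell below this filter. Of the 25, 6 had no fragment in any library, namely *Hist1h2aa*, *Hist1h2ad*, *Hist1h2ah*, *Hist1h2ao*, *Hist1h2ap* and *Hist1h4n*, and *Hist2h2aa2* had an estimate near 0. Of the 43, 30 reached the minimum in every library, 6 in both old and at most 1 young library, 1 in both young and at most 1 old library and 6 in 1 library of each age. Among the 6 was 1, *Hist1h4f*, that reached it in no young library, so the filter favoured a higher estimate in old ETP for this gene. The counts below cover the tested members, and not all members.

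No histone gene differed between the ages by edgeR's quasi-likelihood test (0 of 43 at an adjusted p under 0.05, where 0% of the 10080 tested genes were called; smallest adjusted p of a member = 0.724). At an unadjusted p under 0.05, 2 of the 43 had a higher estimate in old ETP, *Hist1h1c* and *Hist1h2ac*, where 4.65% of all tested genes did. None had a lower one, where 0.913% did. The estimate was above 0 for 33 members and below 0 for 10, against 46.6% and 53.4% of all tested genes. The median log2 fold change from young to old was 0.33 over the tested members and -0.03 over all tested genes. With the replicate number as a term in the model 1 member, *Hist1h1c*, passed (adjusted p = 0.029), where 5.73% of all tested genes were called higher and 1.97% lower in old ETP. Both old libraries were above both young libraries for 13 members (16.1% of all tested genes), and both old were below both young for 0 members (15.5% of all tested genes). On the authors' FPKM, whose sums were unequal (281542 and 135313 for the young, 230420 and 122998 for the old libraries), limma on log2(FPKM + 1) gave a median of -0.03 for members, with 19 of 43 above 0, and -0.27 for all genes, so that the members again lay above the median of all genes. With FPKM scaled to equal sums, 11 members were higher in both old libraries and 3 lower.

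**Figure D1:**
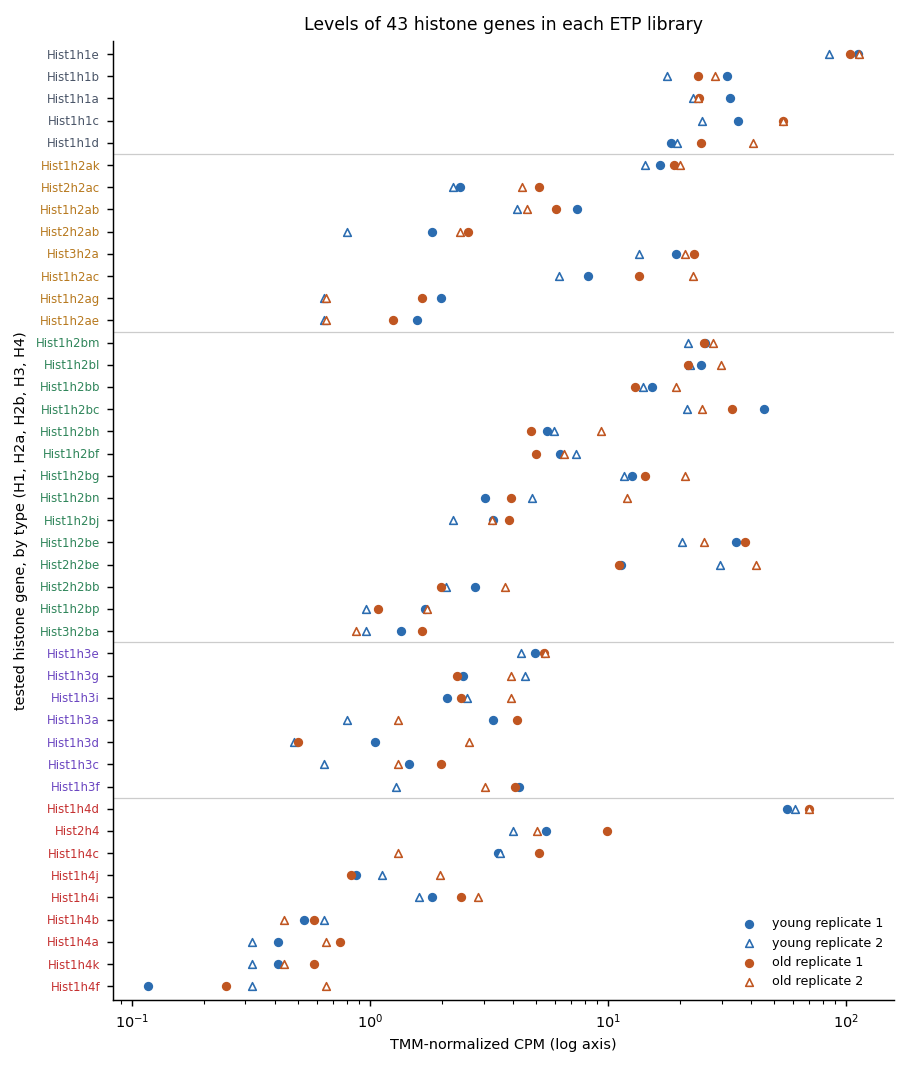
Levels of the 43 tested histone genes in each library, as TMM-normalized CPM on a log axis, with genes grouped by type and ordered by mean TPM within a type. Blue marks are young and orange marks old libraries, filled circles are replicate 1 and open triangles replicate 2. For Hist2h2be the open triangles of both ages lie to the right of the filled circles, while for Hist1h1c both orange marks lie to the right of both blue marks.

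H1 genes encode the linker histones that bind the DNA between nucleosomes. They took 35.3% to 39.5% of all histone fragments, uncorrected for length. By length they summed to 327 to 440 TPM, below the sums of H2b and of H4 in each library. *Hist1h1e* (chr13:23620629-23622558, minus strand, 1 exon) had the most fragments of any member in every library. Its level was 112 and 84.9 CPM in young and 104 and 113 CPM in old replicates 1 and 2. Young replicate 2 was the lowest and the other 3 libraries lay close together, so the ages overlapped (log2 fold change 0.14 with a standard error of 0.27). In GENCODE this gene overlaps *Hist1h2be*, whose level was 34.6 and 20.5 CPM in young and 37.5 and 25.3 CPM in old libraries, and fragments in the shared stretch could be counted for either.

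*Hist1h1c* (chr13:23738808-23740367, plus strand, 1 exon), whose stem-loop is shown above, was higher in both old libraries than in both young ones. Its level was 35.3 and 24.8 CPM in young and 54.2 and 54.5 CPM in old replicates 1 and 2. The means were 30.1 ± 7.39 and 54.3 ± 0.184 CPM (SD, n = 2 each), a log2 fold change of 0.85 (standard error 0.30) that did not pass edgeR's test (unadjusted p = 0.034, adjusted p = 0.798). *Hist1h1d* was at 18.4 and 19.5 CPM in young and 24.7 and 40.7 CPM in old libraries. The old libraries were again both higher but differed more from each other than old replicate 1 did from young (log2 fold change 0.78, standard error 0.37, adjusted p = 0.999 by edgeR). The remaining H1 genes did not follow. *Hist1h1b* was at 31.8 and 17.6 CPM in young and 23.9 and 28.1 CPM in old ETP. *Hist1h1a* was at 32.7 and 22.7 CPM in young and 24.0 and 24.0 CPM in old ETP, with an estimate of -0.21 (standard error 0.33). For both, the old values lay within the range of the young. *Hist1h1t*, known from testis, was below the filter with 0 to 0.871 CPM.

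H2a and H2b form the dimers that flank the H3 and H4 tetramer of a nucleosome. Of the 8 tested H2a genes, 5 had both old libraries above both young, where 16.1% of all tested genes did. *Hist1h2ac* (chr13:23681467-23683948, minus strand, 1 exon) was at 8.25 and 6.25 CPM in young and 13.5 and 22.9 CPM in old replicates 1 and 2. The means were 7.25 ± 1.42 and 18.2 ± 6.65 CPM (SD, n = 2 each), or 1.31 (standard error 0.44) on the log2 scale, the largest estimate and the smallest p of any member (unadjusted p = 0.026, adjusted p = 0.724 by edgeR). Without old replicate 2 it was 0.85. *Hist2h2ac* was at 2.40 and 2.24 CPM in young and 5.15 and 4.36 CPM in old ETP. Within each age its replicates were close, but the values rest on 41, 14, 62 and 20 fragments (log2 fold change 1.03, standard error 0.47, adjusted p = 0.999). The neighbouring *Hist2h2ab* was at 1.81 and 0.801 CPM in young and 2.58 and 2.40 CPM in old ETP.

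*Hist3h2a*, the H2a gene of cluster 3, was at 19.3 and 13.5 CPM in young and 23.0 and 21.1 CPM in old libraries (log2 fold change 0.43, standard error 0.35). Its model overlaps *Trim17*. *Hist1h2ak* was the H2a gene with the highest TPM, between 160 and 203, and was at 16.5 and 14.3 CPM in young and 18.9 and 20.04 CPM in old ETP. In both genes the old libraries lay above the young ones. *Hist1h2ab* was at 7.43 and 4.16 CPM in young and 6.07 and 4.58 CPM in old ETP, and *Hist1h2ae* was at 1.58 and 0.641 CPM in young and 1.25 and 0.654 CPM in old ETP. Both overlapped between the ages.

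H2b genes were the second largest group by fragments (29.9% to 34.8%). Only 1 of the 14 tested, *Hist1h2bg*, had both old libraries above both young, where 16.1% of all tested genes did. Its level was 12.6 and 11.7 CPM in young and 14.3 and 21.1 CPM in old ETP. *Hist1h2bm* and *Hist1h2bl* had the highest mean TPM of this type, 285 and 279. *Hist1h2bm* was at 25.5 and 21.8 CPM in young and 25.4 and 27.7 CPM in old ETP. These values overlapped (log2 fold change 0.16, standard error 0.31). *Hist1h2bl* was at 24.5 and 22.1 CPM in young and 21.8 and 29.8 CPM in old libraries, and *Hist1h2bb* was at 15.3 and 14.1 CPM and 13.0 and 19.4 CPM. In both, the old replicates lay on either side of the young ones. *Hist1h2bf* had the lowest estimate of any member, -0.25 (standard error 0.43), from 6.26 and 7.37 CPM in young and 4.99 and 6.54 CPM in old ETP.

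*Hist2h2be* showed a different order. It was at 11.4 and 29.6 CPM in young and 11.1 and 41.8 CPM in old replicates 1 and 2, so that both libraries numbered 2 were over 2 times as high as both libraries numbered 1. The difference between the ages (log2 fold change 0.37, standard error 0.76) was smaller than that between replicates. *Hist4h4*, the member of cluster 4, which is below the filter, had the same order with 3.10 and 7.21 CPM in young and 4.07 and 11.8 CPM in old libraries. *Hist1h2bc* went the other way, with 45.4 and 21.5 CPM in young and 33.3 and 24.8 CPM in old libraries. Of the 43 tested members, 10 were higher and 17 lower in replicate 2 than in replicate 1 at both ages. The sources used here do not say what sets the libraries of different number apart. Replicate 1 was the deeper library at both ages (16658864 against 6414915 fragments in young, 11816478 against 4839341 in old). Whether depth bears on this order was not tested.

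H3 genes held the smallest share of histone fragments (3.91% to 4.13%), and H4 genes (12.7% to 16.9%) held more than H2a genes (9.003% to 12.04%) in each library. The 3 H3 genes with the highest TPM were *Hist1h3e*, *Hist1h3g* and *Hist1h3i*. *Hist1h3e* was at 4.92 and 4.32 CPM in young and 5.40 and 5.45 CPM in old ETP. It was the only 1 of 7 tested H3 genes with both old libraries above both young, where 16.1% of all tested genes were. *Hist1h3g* was at 2.46 and 4.48 CPM in young and 2.33 and 3.92 CPM in old, and *Hist1h3i* at 2.11 and 2.56 CPM in young and 2.41 and 3.92 CPM in old ETP. These overlapped between the ages.

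*Hist1h4d* (chr13:23581598-23582735, plus strand, 1 exon) held 73.3% to 76.5% of all H4 fragments. It was at 56.4 and 61.0 CPM in young and 69.8 and 70.2 CPM in old replicates 1 and 2. The old libraries were both higher and close to each other (58.7 ± 3.27 and 70.0 ± 0.224 CPM, SD, n = 2 each), but the log2 fold change of 0.25 (standard error 0.24) did not pass edgeR's test (adjusted p = 0.999). By length it was the most abundant member, at 1192 to 1315 TPM. Its deposited FPKM implied an effective length of 103 bases, among the shortest of the family. An effective length is not a transcript length: *Hist1h4k*, with a GENCODE M21 transcript of 312 bases, had the same 103. The GENCODE transcript of *Hist1h4d* has 1138 bases, so its rank depends on the gene model and the length correction behind the FPKM. *Hist2h4* followed at 5.50 and 4.00 CPM in young and 9.89 and 5.01 CPM in old ETP, and *Hist1h4c* at 3.45 and 3.52 CPM and 5.15 and 1.31 CPM. In neither did the ages separate. *Hist1h4f*, with the second largest estimate of the tested members (1.05, standard error 1.05), rests on 2 fragments in each young and 3 in each old library. This is not detectable as a difference at this depth. The gene was tested only because of its old libraries, so its estimate above 0 was favoured by the filter.

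**Figure D2:**
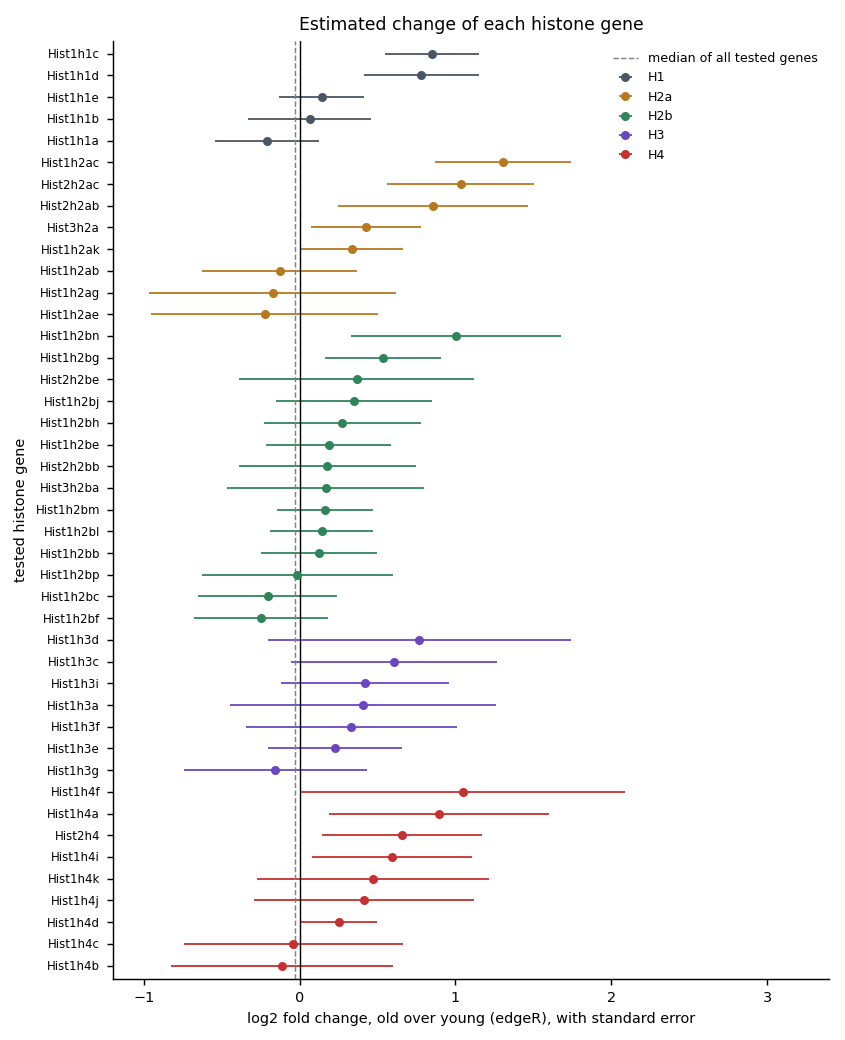
The log2 fold change from young to old of each tested histone gene in edgeR (points) with its standard error (bars), grouped by type. The solid line marks 0 and the dashed line the median of all tested genes, -0.03. Of the 43 points, 33 lie above 0, and the highest is Hist1h2ac at 1.31.

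Summed over the members of each type, mean levels in old ETP were 1.13 to 1.46 times those in young ETP. All members together reached 583 and 480 CPM in young and 604 and 691 CPM in old replicates 1 and 2, or 532 ± 72.4 and 648 ± 61.4 CPM (SD, n = 2 each), a ratio of 1.22. H2a summed to 59.9 and 43.2 CPM in young and 72.7 and 77.3 CPM in old ETP, a ratio of 1.46 and the largest of the types. The ratios were 1.23 for H1, 1.13 for H2b, 1.23 for H3 and 1.23 for H4. By CPM, H2b was the only type whose ages overlapped, at 196 and 167 CPM in young and 181 and 230 CPM in old libraries. With 2 libraries per age an exact permutation test (two-sided) cannot give less than p = 0.333, and it gave this value for the sum of every type but H2b, for which p = 0.667. By length, the order changed: all members summed to 3520 and 3226 TPM in young and 3499 and 3760 TPM in old ETP, so that young replicate 1 lay above old replicate 1. H4, led by *Hist1h4d*, then had the highest sum in each library, 1399 to 1621 TPM, followed by H2b with 1029 to 1392 TPM. By TPM the ages overlapped not only for H2b but also for H1 and H4. H1 summed to 401 and 327 TPM in young and 349 and 440 TPM in old replicates 1 and 2. H4 summed to 1437 and 1399 TPM in young and 1621 and 1406 TPM in old.

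**Figure D3:**
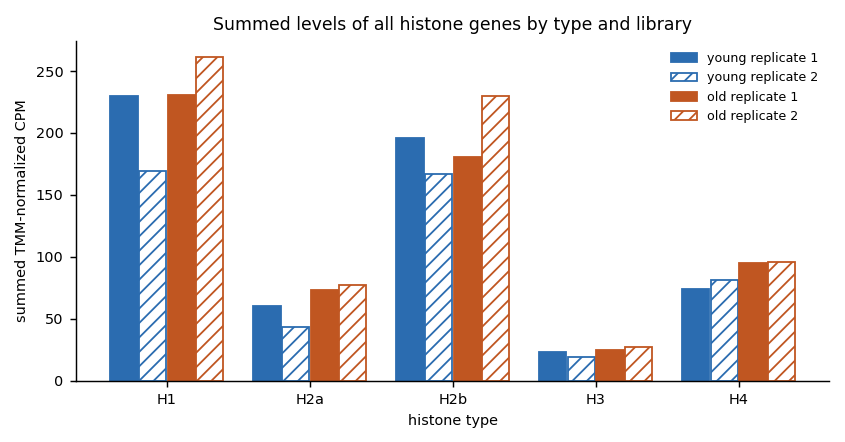
Summed TMM-normalized CPM of all members of each histone type, with 1 bar per library. Filled bars are replicate 1, hatched bars replicate 2, blue young and orange old. The 2 old bars are higher than the 2 young bars for each type except H2b, and for H1 old replicate 1 exceeds young replicate 1 only slightly, at 231 against 230 CPM.

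By position, in cluster 1, 26 of 36 tested members had an estimate above 0 (median 0.26), and both old libraries were above both young for 10. Over all tested genes these shares were 46.6% and 16.1%. In cluster 2 all 5 tested members had an estimate above 0 (median 0.66), with both old libraries higher for 2, *Hist2h2ac* and *Hist2h2ab*. The others of cluster 2 were *Hist2h2be* and *Hist2h4* (above) and *Hist2h2bb*, at 2.75 and 2.08 CPM in young and 2.00 and 3.70 CPM in old ETP. In cluster 3 both tested members had an estimate above 0. *Hist3h2ba* was at 1.35 and 0.961 CPM in young and 1.66 and 0.871 CPM in old ETP, which overlapped.

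The length that the deposited FPKM imply separates members with a long gene model from those that end near the coding sequence. In 11 members it was at least 1000 bases, among them *Hist1h1c*, *Hist1h1d*, *Hist1h1e*, *Hist1h2ac*, *Hist2h2be*, *Hist3h2a* and *Hist4h4*. The stem-loop of *Hist1h1c* lies 840 bases, that of *Hist1h2ac* 2010 bases and that of *Hist1h1d* 4884 bases before the end of the GENCODE transcript. These GENCODE models thus extend past the site where replication-dependent mRNA is cut. For *Hist1h1d* the implied length was 2904 bases against 7425 in GENCODE, so the model behind the FPKM may end sooner. Fragments from the stretches before and after the stem-loop are not separated in the table. Of all histone fragments, the 11 long models held 42.3% and 43.8% in the young and 45.8% and 48.9% in the old libraries. All 7 tested ones had an estimate above 0 (median 0.43), and both members with an unadjusted p under 0.05 were among them. Of the 36 tested members with a shorter implied length, 26 had an estimate above 0 (median 0.26). The difference between these classes was not tested, since the members share their libraries.

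Many members are near copies of each other, which bears on how reads were assigned. For each GENCODE transcript the share of 100-base windows that also occurs in transcripts of genes elsewhere was counted. For some members this transcript is far longer than the deposited FPKM imply. An example is *Hist1h4c*, with 14.0% shared over 820 bases but an effective length of 103. The share over the model behind the FPKM may differ for such members. The median share was 0.40% for H1, 64.5% for H2a, 32.8% for H2b, 40.0% for H3 and 18.96% for H4. Of the 26 members with under 20% of windows shared, 22 were tested, 20 with an estimate above 0 (median log2 fold change 0.35). Of the 42 others, 21 were tested, 13 with an estimate above and 8 below 0 (median 0.23). The difference between these classes was not tested. Of the 12 members with at least 80% shared, 0 were tested, and none had more than 53 fragments over the 4 libraries. *Hist2h2aa2*, all of whose windows are shared, had practically none. The level of these copies is uncertain, as their reads could be assigned to another copy or left out. *Hist1h4d*, *Hist2h2be* and *Hist3h2a* shared 0% of their windows, and *Hist1h2ac* 7.68%.

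**Figure D4:**
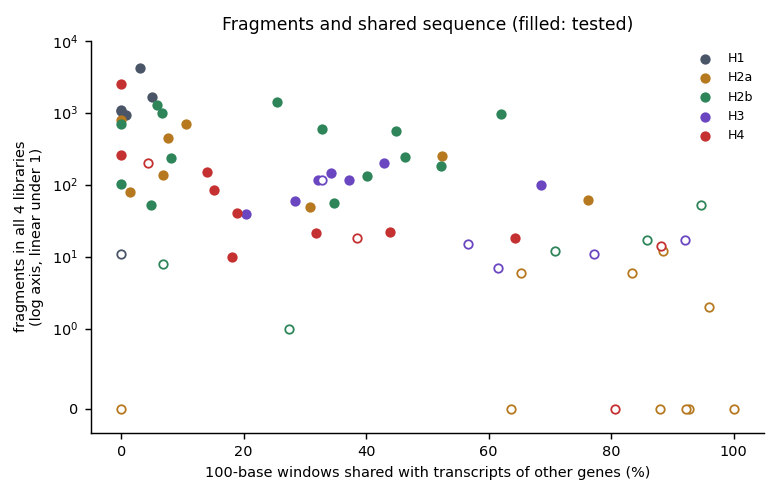
Fragments of each of the 68 members over all 4 libraries (log axis, linear under 1) against the percent of its 100-base windows that occur in transcripts of other genes. Colours are histone types, filled points are tested members and open points members below the filter. No filled point lies at 80% or more.

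The divergent pairs share the stretch of DNA between their starts, and both genes were tested in 5 of the 13 pairs. *Hist1h2ac* and *Hist1h2bc* lie 250 bases apart. As given above, *Hist1h2ac* was higher in both old libraries while *Hist1h2bc* overlapped between the ages with a young mean of 33.4 and an old mean of 29.0 CPM. *Hist2h2ac* and *Hist2h2be* lie 238 bases apart, and only *Hist2h2ac* had both old libraries above both young. *Hist1h2ak* and *Hist1h2bn* lie 295 bases apart, and *Hist1h2bn* was at 3.04 and 4.81 CPM in young and 3.91 and 11.98 CPM in old ETP. *Hist1h2ae* and *Hist1h2bg* lie 175 bases apart, and there only the H2b gene, *Hist1h2bg*, had both old libraries above both young. *Hist1h2ag* and *Hist1h2bj* lie 269 bases apart. *Hist1h2ag* was at 1.99 and 0.641 CPM in young and 1.66 and 0.654 CPM in old ETP. *Hist1h2bj* was at 3.28 and 2.24 CPM in young and 3.82 and 3.27 CPM in old ETP, and both overlapped between the ages. The difference within a pair was not tested.

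The genes that serve the histone genes are given as lists taken from textbook knowledge. For the machinery that forms, binds and degrades the histone 3′ end, 14 of 20 tested genes had an estimate below 0 (median log2 fold change -0.12) and none had an unadjusted p under 0.05. *Slbp* was at 106 and 105 CPM in young and 89.0 and 91.1 CPM in old replicates 1 and 2. The old libraries were both lower, by less than the standard error of the difference (log2 fold change -0.22, standard error 0.24, adjusted p = 0.999 by edgeR). *Zcchc6*, a terminal uridylyl transferase gene, had the most fragments, uncorrected for length (277 and 316 CPM in young, 296 and 289 CPM in old). The smallest p was that of *Cstf2*, which encodes a cleavage stimulation factor (119 and 156 CPM in young, 82.0 and 111 CPM in old). *Lsm11*, of the U7 snRNP, was below the filter at 15.6 and 20.02 CPM in young and 14.6 and 14.8 CPM in old ETP.

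For the histone locus body and transcription, 10 of 13 tested genes had an estimate below 0 (median -0.25). *Npat* was at 134 and 175 CPM in young and 98.6 and 125 CPM in old libraries. Both old values were lower than both young ones (log2 fold change -0.47, standard error 0.29, adjusted p = 0.999). *Casp8ap2*, which encodes the FLASH protein of the locus body, was at 175 and 291 CPM in young and 99.3 and 213 CPM in old ETP, with replicate 2 higher at both ages (log2 fold change -0.58, standard error 0.46). This estimate ran from -0.08 without old replicate 1 to -1.25 without old replicate 2. *Trrap*, a cofactor of histone acetyltransferases, had the most fragments, uncorrected for length (393 and 419 CPM in young, 384 and 377 CPM in old). *Pou2af1*, a coactivator of octamer-binding factors best known from B cells, was below the filter and at 0.351 and 1.44 CPM in young and 2.33 and 21.6 CPM in old libraries.

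Of the 24 histone chaperone and chromatin assembly genes, all tested, 20 had an estimate below 0 (median -0.33). *Nasp*, which encodes a chaperone of H3 and H4, was at 169 and 147 CPM in young and 114 and 112 CPM in old ETP (log2 fold change -0.49, standard error 0.25, adjusted p = 0.999 by edgeR). Its ages did not overlap. *Npm1* had the most fragments (1849 and 2801 CPM in young, 1165 and 2097 CPM in old). Genes of S phase, such as those of the MCM helicase and of nucleotide supply, had an estimate below 0 in 42 of 42 cases (median -0.39). Both old libraries were below both young for 14 of these 42 genes, where 15.5% of all tested genes were. With a library left out, 28 (without young replicate 1) to 42 of them were below 0, and their median became -0.14 when young replicate 1 and -0.18 when old replicate 2 was omitted, and -0.61 when young replicate 2 and -0.75 when old replicate 1 was omitted. *Prim1*, a primase subunit gene, was at 79.9 and 72.6 CPM in young and 52.7 and 36.8 CPM in old ETP (log2 fold change -0.77, standard error 0.29, unadjusted p = 0.042, adjusted p = 0.852 by edgeR). *Mcm6* had the most fragments of this list (707 and 586 CPM in young, 550 and 353 CPM in old). Relative to the S phase list, the summed histone level was 83.9 and 89.2 CPM per 1000 CPM of S phase genes for young replicates 1 and 2, and 113 and 183 for the old. The ages did not overlap (exact permutation test, two-sided, p = 0.333, the smallest that 2 against 2 libraries can give).

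Replication-independent variants are expressed from genes outside the clusters, mostly with polyadenylated mRNA. Of the 9 tested, 5 had an estimate above and 4 below 0 (median 0.01). *H3f3a* and *H3f3b*, which encode the same H3.3 protein, were at 669 and 554 CPM and 722 and 427 CPM in young, and at 685 and 466 CPM and 970 and 515 CPM in old replicates 1 and 2. *H2afz*, which encodes H2A.Z, was at 552 and 449 CPM in young and 536 and 469 CPM in old ETP, and *H2afx*, which encodes the H2A.X of DNA damage signalling, was at 123 and 59.3 CPM and 139 and 83.2 CPM. In each the ages overlapped. *H2afy*, which encodes macroH2A, had the most fragments (1775 and 1429 CPM in young, 1672 and 889 CPM in old). The H1 variant gene *H1f0*, associated with cells that stop dividing, was at 52.3 and 52.9 CPM in young and 36.4 and 37.5 CPM in old ETP, and its ages did not overlap (log2 fold change -0.51, standard error 0.26, adjusted p = 0.999 by edgeR).

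**Figure D5:**
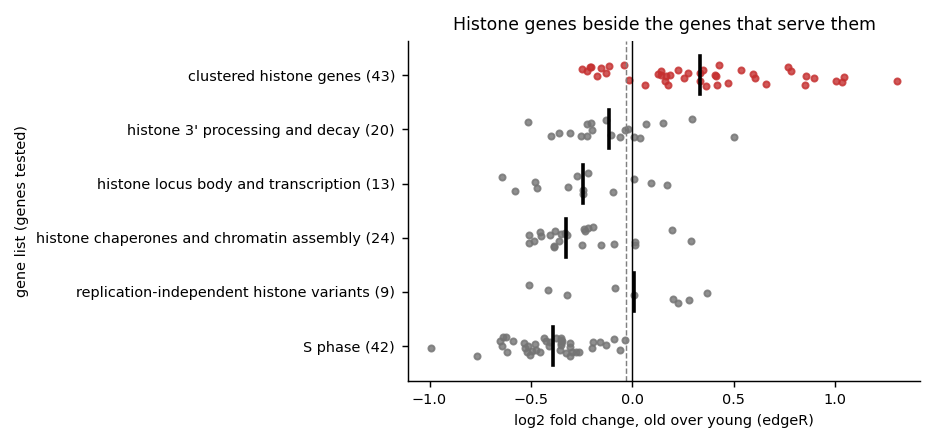
The log2 fold change from young to old in edgeR for the tested histone genes (red) and the 5 lists of genes that serve them (grey), with 1 point per gene and a black bar at each list's median. The solid line is 0 and the dashed line the median of all tested genes. The histone genes have a median of 0.33 and the S phase genes, all below 0, one of -0.39.

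RNA of several marker genes of other cells was higher in the old libraries, and these values stand beside every difference above. *Kit* and *Cd44*, the genes of the sorting gate, were at 764 to 1096 CPM and 496 to 636 CPM, and 3 of the 5 genes listed for the gate and early progenitors had an estimate above 0. All 10 markers of conventional dendritic cells had an estimate above 0 in old ETP, and their sum was 586 and 1154 CPM in young and 6023 and 19928 CPM in old replicates 1 and 2. Of 11 markers of NK and innate lymphoid cells, 6 were tested and 5 had an estimate above 0 (sum 245 and 249 CPM in young, 382 and 413 CPM in old). The sums of 5 mature T cell markers were 19.3 and 17.3 CPM in young and 28.9 and 78.0 CPM in old. Of the 3 tested, 2 had an estimate above 0, and *Cd4* had both old libraries (4.66 and 8.28 CPM) below both young (11.3 and 10.4 CPM). The sums of 5 B cell markers were 33.2 and 25.8 CPM in young and 27.5 and 39.7 CPM in old, and those of 4 erythroid markers were 13.4 and 17.5 CPM and 14.1 and 6.54 CPM. *Tbx21*, of the NK list, was at 0 in both young libraries. The old library with the highest dendritic cell sum, replicate 2, also had the highest summed histone level and the lowest S phase level (3770 CPM, against 5333 to 6947 CPM in the others). In young ETP, replicate 2 likewise had the higher dendritic cell sum and the lower S phase level. There, however, its summed histone level was the lower one, at 480 against 583 CPM. By the study's methods, the lineage antibodies of the sort were directed against B, T, NK, myeloid and erythroid cells. Those named include antibodies against CD8α and CD11b, and none against a product of the 10 dendritic cell markers. How far the sort removed dendritic cells was not tested. Whether the marker RNA came from other cells in the sort was not tested. The part of the marker RNA's source in the histone levels was not tested. Without old replicate 2 the median log2 fold change of the tested histone genes was 0.20, with 28 of 43 above 0, and without young replicate 2 it was 0.19.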

How the data were processed

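RNA from sorted ETP was amplified with the Nugen Ovation RNA-Seq System v2, in which, as background, first strands are primed from random and oligo-dT primers, and sequenced in pairs. Messages without a poly(A) tail can therefore be present, at an efficiency that is not known here. Per the labels and methods, the authors aligned reads with STAR 2.3.0 to GRCm38 (mm10), and the submitters' processing notes also list Cuffdiff with Cufflinks 2.1.1, DESeq 1.12.1 and HTSeq 0.5.4p3. The deposited table holds, per gene and library, the authors' estimated counts of fragments and their FPKM, and a scaled signal that was not used. Strand use and the treatment of reads with several alignments are not given in the sources used here. Of the 272 estimates of members, 11 were not whole numbers (tolerance 1e-06).

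Counts were rounded and compared with edgeR 4.0.16 (TMM, quasi-likelihood test on age alone, Benjamini-Hochberg adjustment, threshold 0.05) in R 4.3.3, over the 10080 genes for which 2 or more libraries had an FPKM of 1 or higher. A fold change of all fits is old over young. Depth was 4839341 to 16658864 fragments, and 21 of 43 tested members had under 20 fragments in a library. Replicates of an age differed by more than sampling noise (chi-square per gene 71.1 in young and 83.3 in old). Effective length was the length implied by fragments and FPKM, calibrated on 147 long genes. Transcripts came from GENCODE M21 and promoters from RefSeq.

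The members and lists were chosen with earlier results of these data known. One listed gene, *Symk*, has no row, and single values that fall under items withheld from the text are not reported here. Genes were named by a rule: the 3 highest per type by FPKM, those with an unadjusted p under 0.05 or a call in any alternative, the 3 largest changes per direction, every tested member of clusters 2 to 4, and set genes of each list with its highest and its smallest p. Other members (*Hist1h1d*, *Hist1h2ag*, *Hist1h2bb*, *Hist1h2be*, *Hist1h2bg*, *Hist1h2bj*, *Hist1h2bn*, *Hist1h4k* and those below the filter) were named after their values were seen. Alternatives were RLE and upper-quartile scaling, DESeq2 1.42.0, limma 3.58.1 on log2(FPKM + 1) and log2(FPKM + 0.1), 3 other filters, a term for the replicate number, and each library left out in turn. The scripts were tested on simulated data.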

Additional observations from a re-analysis of the deposited data

How the results depend on the processing

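Of the 13 alternative fits, 9 called no gene at all and say nothing of the histone genes. The other 4 were DESeq2, no filter, the fit without old replicate 1 and the replicate block (the replicate number as a term). Of these the block called 1 histone gene, *Hist1h1c* (log2 fold change 0.86, adjusted p = 0.029). The libraries share only a number. Differences between replicates 1 and 2 correlated between the ages (r = 0.73 over genes), a hint from the data and not from the design. Over all genes, edgeR called 0, DESeq2 225, edgeR with no filter 508 and with the replicate block 777, and 0 to 221 genes were called with a library left out. With the replicate block, *Casp8ap2* and *Prim1* also passed (adjusted p = 0.034 and 0.026). The cause of these moves was not tested.

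The median log2 fold change of tested histone genes was -0.031 with limma on log2(FPKM + 1) and -0.050 with log2(FPKM + 0.1), scales on which the median of all genes was -0.27 and -0.33. With a library left out it ran from 0.19 to 0.50, the highest without young replicate 1. It was 0.35 over members with under 20% of windows shared and 0.24 over the 22 with at least 20 fragments in every library, alternatives chosen after seeing the data. Both old libraries were below both young for 1 member on the authors' FPKM, 3 with no filter and 3 with FPKM scaled to equal sums (the last also chosen after seeing the data). They were above both young for 3 members on the authors' FPKM. With a library left out, which loosens the condition, 3 to 8 members were lower and 16 to 29 higher in old. The ratio of the histone share of fragments (1.19) was 1.08 as a share of summed FPKM, and 1.06 to 1.36 with a library left out.

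Of the 18 genes whose fold change is printed, 5 changed sign in an alternative. On the FPKM scales, where the median of all genes also lay lower, *Hist1h4d* and *Hist1h2bm* changed sign in no other alternative. On log2(FPKM + 1) and log2(FPKM + 0.1), *Hist1h1e* was at -0.13 and -0.14, *Hist1h2bm* at -0.18 and -0.19, *Hist1h4d* at -0.14 and -0.14, and *Hist2h2be* at -0.021 and -0.050. With a library left out, *Hist1h1e* ran from -0.043 to 0.35, *Hist1h1a* from -0.44 to 0.077 and *Hist2h2be* from -0.88 to 1.21. With no change of sign, *Hist1h1d* ran from 0.36 (without old replicate 2) to 1.14, *Hist3h2a* from 0.19 (without young replicate 2) to 0.72, *Hist1h4f* from 0.29 (without young replicate 1) to 1.79, *Hist1h2bf* from -0.47 to -0.015 (without old replicate 1) and *Npat* from -0.67 to -0.26 (without young replicate 2). Of the tested members, 21 had under 20 fragments in a library.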

Other observations

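Among the members below the filter, *Hist1h4m* was at 0.644 and 0.481 CPM in young replicates 1 and 2, from 11 and 3 fragments. Its estimate was near 0 in old replicate 1 and 0 in old replicate 2, where a count of 0 allows up to 0.249 and 0.654 CPM. Of its windows 88.1% are shared with other genes, so its reads could be assigned to another copy. *Hist1h3b* was at 0.468 and 0.481 CPM in young and 0.333 and 0 CPM in old libraries. *Hist1h2bq*, of whose windows 94.6% are shared with other genes, was at 1.17 and 1.28 CPM in young and 1.58 and 1.31 CPM in old libraries, and *Hist2h3c1* was at 2.63 and 2.88 CPM in young and 2.66 and 4.79 CPM in old libraries.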
